A study of Homo sapiens with 2 samples.

Results

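The genes of the cytosolic ribosomal proteins were compared between MCF-10A cells that stably expressed EGFP-ARHGAP4 and MCF-10A cells that carried an EGFP vector. MCF-10A is an established, non-tumorigenic human mammary epithelial line, and ARHGAP4 is a GTPase-activating protein. The control cells also express EGFP, so the groups share the tag and differ in the fused protein. Each group had 1 Affymetrix whole-transcript array. The labels do not say whether each line was a clone or a pool. Members were the genes whose symbol is RPL or RPS with a number and at most 1 letter of A, X or Y, plus RPLP0, RPLP1, RPLP2 and RPSA, with pseudogenes left out. This found 43 of the 14812 named genes, 26 of the large and 17 of the small subunit, measured by 50 features. The RefSeq gene table holds 79 genes that meet the rule, and the other 36, among them RPLP0, RPL5 and RPSA, were not analysed here. Large and small subunit members lay on 18 chromosomes.

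The cytosolic ribosome has a large subunit, which forms peptide bonds, and a small subunit, which decodes the mRNA. Both are built in the nucleolus from ribosomal RNA and ribosomal proteins, which the cell makes in nearly equal numbers. The mRNAs of ribosomal proteins typically begin with a run of pyrimidines, the terminal oligopyrimidine tract, through which the kinase mTORC1 and the RNA-binding protein LARP1 control their translation.

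This tract is the sequence that most members share and that the rule did not use. RefSeq promoter windows (GRCh38.p14) were at hand for 40 of the 43 members; RPL8, RPL30 and RPS15A had no entry. On the transcribed strand, 28 of these 40 (70.0%) had a C at an annotated start followed by 4 letters that are each C or T, against 5.14% of all 27305 genes with a window. For RPL11, RPL19, RPS19 and other genes with several annotated starts, any start counted. The pyrimidine run across the start was 6 to 22 bases long in the 28. The windows of the 4 members with the highest and the 4 with the lowest difference between the arrays follow, from 20 bases before the start through base 21 of the transcript, 5′ to 3′. Capitals mark the unbroken run of C and T that crosses the start.
RPL28, chr19:55385912-55385952, plus strand: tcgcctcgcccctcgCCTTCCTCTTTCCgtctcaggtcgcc
RPS19, chr19:41860235-41860275, plus strand: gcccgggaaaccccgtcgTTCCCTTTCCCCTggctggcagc
RPL39, chrX:119791610-119791650, minus strand: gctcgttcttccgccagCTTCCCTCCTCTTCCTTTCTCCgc
RPL37A, chr2:216498824-216498864, plus strand: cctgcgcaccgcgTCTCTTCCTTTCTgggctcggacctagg
RPL9, chr4:39458902-39458942, minus strand: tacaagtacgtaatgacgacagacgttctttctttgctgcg
RPL26, chr17:8383173-8383213, minus strand: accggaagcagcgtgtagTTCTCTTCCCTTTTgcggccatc
RPL6, chr12:112411422-112411462, minus strand: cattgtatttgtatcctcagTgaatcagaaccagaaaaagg
RPS23, chr5:82278334-82278374, minus strand: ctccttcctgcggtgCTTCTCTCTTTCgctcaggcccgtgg
All 4 of the highest members had the tract, and so did RPL26 and RPS23 among the lowest. At the annotated start of RPL9 there was no run, and at that of RPL6 it was a single T; no match says only that these letters are not at the annotated start.

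In the deposited table every feature has a normalized log2 value. The median over all 44629 features was 2.88 in the EGFP-ARHGAP4 array and 2.88 in the EGFP vector array. As a check of the labels, ARHGAP4 stood at 6.68 in the EGFP-ARHGAP4 array and 4.49 in the EGFP vector array, a difference of 2.19. Of 7 epithelial markers 3 were measured. KRT5 was at 8.34 in the EGFP-ARHGAP4 array and 8.33 in the EGFP vector array, EPCAM at 7.79 in the EGFP-ARHGAP4 array and 6.58 in the EGFP vector array, and KRT14 at 6.96 in the EGFP-ARHGAP4 array and 9.21 in the EGFP vector array. Of 15 markers of fibroblasts, immune cells and endothelium, 6 were measured, at 1.73 to 6.50 in the EGFP-ARHGAP4 array and 1.75 to 5.84 in the EGFP vector array. Among them the immune marker LAPTM5 differed by 2.05 and the other measured immune marker, CD14, by -0.35. KDR differed by 2.27, and its EGFP vector value of 3.36 was below 4.02, the median of all gene-level values. DCN, LUM and VWF lay below 4.02 in both arrays. Their part in the results was not tested. With 1 array in each group no difference can be set against variation between cultures, and no p-value is given. Every difference was taken in log2 units as the EGFP-ARHGAP4 value less the EGFP vector value, and is relative to the bulk of the features on an array. Fewer cells of a type and less RNA per cell cannot be told apart.

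The ribosomal protein genes differed little between the arrays, and their centre lay slightly above 0 where that of all genes lay below. The median of the 43 was 0.05 (mean 0.08, SD over genes 0.20), against -0.03 over all genes and -0.10 over the 7685 genes past the level filter, which keeps a gene whose higher value is at least 4.02. Of the 43, 36 (83.7%) differed by under 0.25, or 1.19-fold, either way, against 62.6% of all genes and 55.9% of those past the filter. Of the other 7, 6 were higher by at least 0.25 and 1 was lower, where 15.3% of all genes were higher and 22.1% lower by that much, or 14.2% and 29.9% past the filter. There were 26 members above 0 (60.5%), against 41.6% of all genes and 36.7% past the filter. A difference of at least 0.5, or 1.41-fold, was reached upwards by RPL28 alone and downwards by no member, where 4.25% of all genes were higher and 6.47% lower by that much; among genes past the filter these shares were 5.15% and 9.81%. No member differed by 1, where 0.581% of all genes were higher and 0.486% lower by that much, or 1.0% and 0.794% past the filter. Of the 43 members 42 were above 4.02 in both arrays, so the filter did not choose them by their difference. The exception was RPL22, at 3.44 in the EGFP-ARHGAP4 array and 3.51 in the EGFP vector array.

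**Figure D1:**
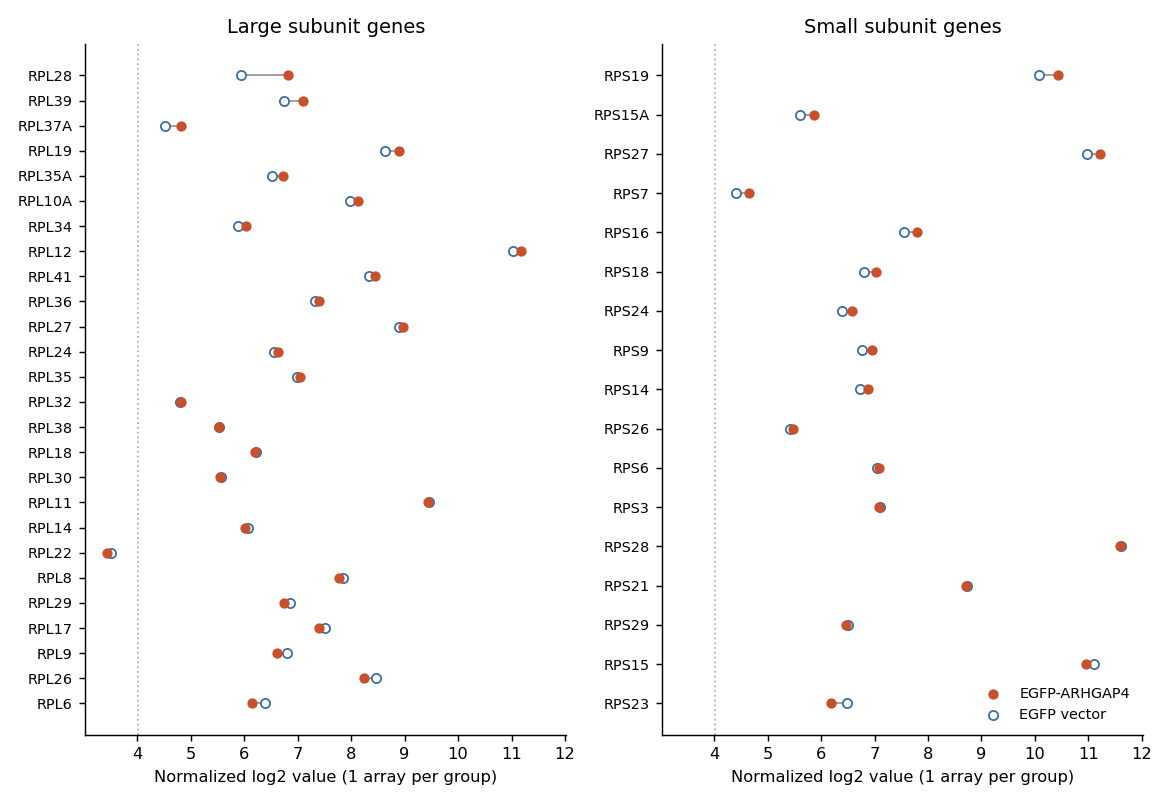
Normalized log2 values of the 43 ribosomal protein genes in the EGFP-ARHGAP4 array (filled) and the EGFP vector array (open), for large (left) and small (right) subunit genes, each ordered by difference, with the highest at the top. The dotted line is the level filter at 4.02; for most genes the points nearly coincide, and RPL28 shows the widest gap.

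The absolute log2 values of different features depend on their probes and are not ranked against each other. Within each gene the pair of values can be compared. The values of members ran from 3.44 to 11.60 in the EGFP-ARHGAP4 array and from 3.51 to 11.61 in the EGFP vector array, both ends being RPL22 and RPS28.

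Small subunit genes had a median difference of 0.16 over 17 genes, with 11 above 0, and none differed by 0.5. The median was 0.25 after quantile normalization, 0.28 after loess and 0.11 without RPS24, which lies on chromosome 10. As deposited, the mean was 0.10, against 0.07 for large subunit genes. RPS19, which is needed for maturation of the small subunit and is mutated in Diamond-Blackfan anaemia, had 10.43 in the EGFP-ARHGAP4 array and 10.07 in the EGFP vector array, a difference of 0.35 or 1.28-fold. It was the second highest of all members. RPS7, RPS24 and RPS26 are also mutated in that anaemia. Members were not sorted by it in full, so the genes named for it do not show how its genes differ as a set. RPS7 stood at 4.65 in EGFP-ARHGAP4 cells and 4.41 in vector cells (0.23), RPS24 at 6.58 in EGFP-ARHGAP4 cells and 6.40 in vector cells (0.18), and RPS26, a protein of the mRNA exit site, at 5.47 in EGFP-ARHGAP4 cells and 5.42 in vector cells (0.05). For RPS26 the arrays nearly coincide.

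Around the decoding site the genes went both ways. RPS23, a protein of the decoding centre, had 6.18 in the EGFP-ARHGAP4 array and 6.48 in the EGFP vector array, a difference of -0.30, the lowest of all members. RPS15, which contacts the decoding region from the head of the subunit, had 10.95 in EGFP-ARHGAP4 cells and 11.11 in vector cells (-0.16). RPS9, which takes part in decoding fidelity and lies near the mRNA entry, had 6.95 in EGFP-ARHGAP4 cells and 6.77 in vector cells (0.18). RPS3, also of the mRNA entry site, had 7.08 in EGFP-ARHGAP4 cells and 7.09 in vector cells, a difference of -0.01. These genes spanned most of the range of the small subunit list.

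RPS6, the protein that S6 kinase phosphorylates downstream of mTORC1, had 7.08 in EGFP-ARHGAP4 cells and 7.04 in vector cells, a difference of 0.03. RPS14, the gene tied to the anaemia of the 5q- syndrome, had 6.88 in EGFP-ARHGAP4 cells and 6.72 in vector cells (0.16). RPS27, a zinc finger protein of the subunit, had 11.22 in EGFP-ARHGAP4 cells and 10.98 in vector cells (0.24). The other small subunit genes fell into 2 sets. RPS15A at 0.26, RPS16 at 0.23 and RPS18 at 0.23 were higher in the EGFP-ARHGAP4 array, and RPS21, RPS28 and RPS29 differed by -0.01 to -0.03.

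Large subunit genes had a median difference of 0.03 over 26 genes, with 15 above 0. The median was 0.01 without RPL28, 0.13 after quantile normalization and 0.14 after loess. RPL28, a large subunit protein with no counterpart in budding yeast, stood apart from the rest. It had 6.82 in the EGFP-ARHGAP4 array and 5.93 in the EGFP vector array, a difference of 0.88 or 1.84-fold. The next member, RPS19, was at 0.35, so RPL28 alone lay outside the range from -0.30 to 0.35 that held the other 42. Without RPL28 the median of the members was 0.05 and the SD 0.16. RPL28 rests on 1 feature, annotated with 1 of its 6 curated RefSeq transcripts, and which transcripts the probes take up is not given. In the gene table its interval overlaps that of UBE2S, a ubiquitin-conjugating enzyme gene on the opposite strand, which differed by 0.28.

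**Figure D2:**
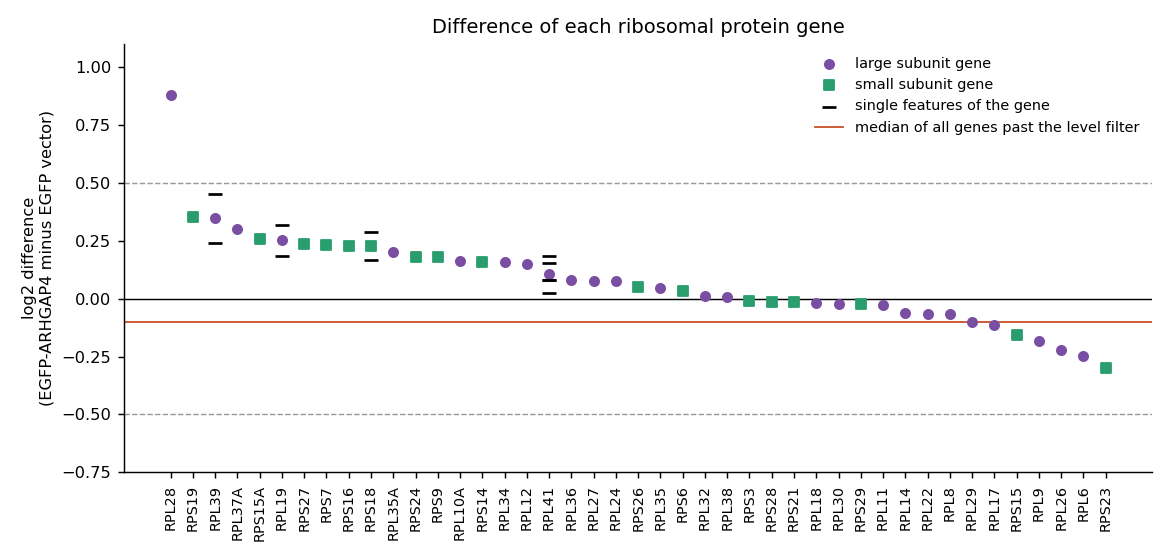
Difference in log2 value (EGFP-ARHGAP4 minus EGFP vector) of each of the 43 members, from highest to lowest; circles are large and squares small subunit genes, and short bars are the single features of the 4 genes with several. Dashed lines mark 0.5 and -0.5 and the coloured line the median of all genes past the level filter, -0.10; RPL28 at 0.88 alone lies beyond a dashed line.

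Genes of the peptide exit tunnel and its rim went both ways. RPL39, a small protein of the tunnel wall, was at 7.10 in the EGFP-ARHGAP4 array and 6.75 in the EGFP vector array, a difference of 0.35. RPL35, part of the docking site for the signal recognition particle at the tunnel exit, had 7.03 in EGFP-ARHGAP4 cells and 6.99 in vector cells (0.05). RPL17 had 7.39 in EGFP-ARHGAP4 cells and 7.50 in vector cells (-0.11), and RPL26, which can also bind the p53 mRNA, had 8.24 in EGFP-ARHGAP4 cells and 8.46 in vector cells (-0.22). Neighbouring proteins in the ribosome thus had genes at opposite ends of the list.

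RPL19, RPL24 and RPL41 are among the proteins that bridge the subunits. RPL19 had 8.89 in EGFP-ARHGAP4 cells and 8.63 in vector cells, a difference of 0.25, RPL24 had 6.63 in EGFP-ARHGAP4 cells and 6.55 in vector cells (0.07), and RPL41, the shortest ribosomal protein, had 8.44 in EGFP-ARHGAP4 cells and 8.34 in vector cells (0.10). RPL12, at the base of the stalk that recruits elongation factors, had 11.18 in EGFP-ARHGAP4 cells and 11.03 in vector cells (0.15). RPL10A, the protein of the L1 stalk beside the exit site for tRNA, had 8.14 in EGFP-ARHGAP4 cells and 7.98 in vector cells (0.16).

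RPL11, which binds the 5S RNA and, when free, the p53 ubiquitin ligase MDM2, had 9.43 in the EGFP-ARHGAP4 array and 9.46 in the EGFP vector array, a difference of -0.03. RPL6, another protein reported to bind MDM2, had 6.14 in EGFP-ARHGAP4 cells and 6.39 in vector cells (-0.25), and RPL9 had 6.61 in EGFP-ARHGAP4 cells and 6.80 in vector cells (-0.18). RPL8, which lies near the peptidyl transferase centre, had 7.78 in EGFP-ARHGAP4 cells and 7.85 in vector cells (-0.07). RPL35A, also mutated in Diamond-Blackfan anaemia, had 6.72 in EGFP-ARHGAP4 cells and 6.52 in vector cells (0.20), and RPL38, known in mice for its part in translating Hox mRNAs, had 5.53 in EGFP-ARHGAP4 cells and 5.52 in vector cells (0.01). Of the remaining 10 large subunit genes RPL37A was the highest, at 4.82 in EGFP-ARHGAP4 cells and 4.52 in vector cells (0.30), and RPL29 the lowest, at 6.75 in EGFP-ARHGAP4 cells and 6.85 in vector cells (-0.10). Between them lay RPL34 at 0.16, RPL36 at 0.08, RPL27 at 0.08, RPL32 at 0.01, RPL18 and RPL30 at -0.02, RPL14 at -0.06 and RPL22 at -0.07.

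The 4 genes measured by several features give the only repeat within an array. All 5 features of RPL41 were higher in the EGFP-ARHGAP4 array, with differences of 0.02 to 0.18 (SD 0.06). The feature pairs differed by 0.19 and 0.32 for RPL19, by 0.17 and 0.29 for RPS18 and by 0.24 and 0.45 for RPL39. Within a gene the features thus kept 1 direction but spread by 0.12 to 0.21. For comparison, features of the same gene disagreed in their difference with a pooled SD of 0.21 over the 336 genes past the filter that had more than 1 feature, and 36 of the 43 members differed from 0 by less than 0.25. Features of ribosomal protein genes can also take up RNA of near-identical pseudogenes, so single values are uncertain to that extent. Of 25 measured pseudogenes 12 (48.0%) were above 0, against 41.6% of all genes. Their median was -0.02, or 0.01 after quantile normalization, 0.01 after centring and 0.0034 after loess. The largest differences among those past the filter were RPL13AP6 at 0.51, which passed in the EGFP-ARHGAP4 array alone (4.09, against 3.58 in the EGFP vector array), RPL32P3 at 0.47, RPS2P32 at 0.37 and RPL13AP20 at 0.23.

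The difference of a member was set beside that of the genes around it, since around some members most neighbouring genes lay on the same side of 0. Members were placed by the position of their gene, not of their features. For each member the median was taken over up to 12 other named genes past the filter on either side. That gave 24 neighbours for 40 members, and fewer near a chromosome end for RPS7 (19), RPL8 (17) and RPL35A (13). Around RPL28 these 24 had a median of 0.29. Of these, 18 were above 0, against 36.7% of all genes past the filter. Higher by at least 0.5 were 5 of the 24, against 5.15% of all genes past the filter. The nearest on one side, TMEM238, named after its value was seen, had 8.19 in the EGFP-ARHGAP4 array and 7.25 in the EGFP vector array. Of the 24 neighbours 2 differed by as much as RPL28 or more. The 8 members on chromosome 19 had the widest range, from RPS15 at -0.16 to RPL28 at 0.88. Next to the other high members of chromosome 19 the neighbours were above 0 as well, at 0.25 for RPS19, 0.23 for RPS9 and 0.09 for RPS16. Of the rest on that chromosome, RPL36 at 0.08 had neighbours at -0.12 and RPL18 at -0.02 had neighbours at 0.11. RPS15 had neighbours at 0.01, and RPS28, at -0.01, had neighbours at -0.14. RPS24 on chromosome 10 was at 0.18 with neighbours at 0.29. RPL39 on the X chromosome was the reverse, at 0.35 with neighbours at -0.17. Across the 43 members the difference and the neighbours' median correlated with r = 0.44, or r = 0.30 without RPL28. These are descriptions across genes of the same 2 arrays, some of which share neighbours. The part of such regional differences in the members' values was not tested. Relative to their neighbours, 33 of 43 members were above 0, with a median of 0.14, and RPL28 was 0.59 above and RPL39 0.52 above. The neighbours' medians had themselves a median of -0.12, near the -0.10 of all genes past the filter. How many of all genes lay above their own neighbours was not computed, so the 33 have no share to be set against.

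**Figure D3:**
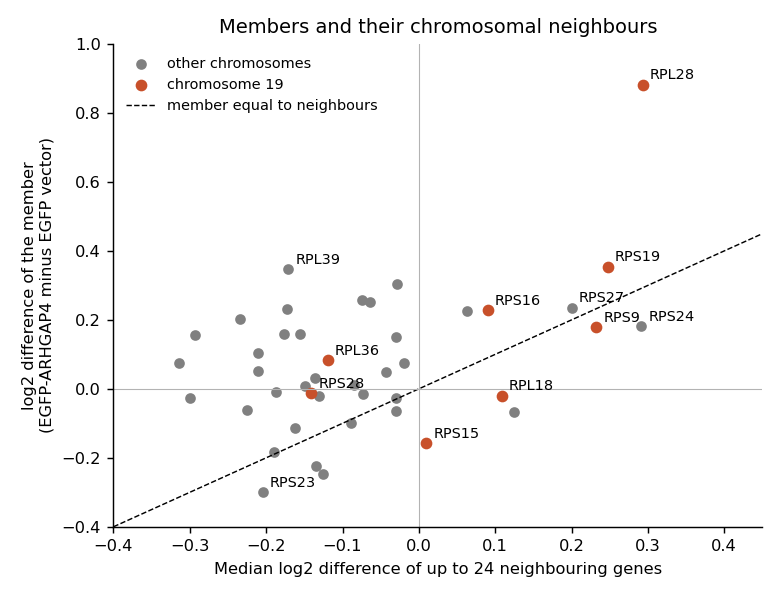
Difference of each of the 43 members (vertical) against the median difference of its chromosomal neighbours (horizontal; 24 genes, or 13 to 19 for RPL35A, RPL8 and RPS7), both in log2 units and as EGFP-ARHGAP4 minus EGFP vector. Points above the dashed line exceed their neighbours; RPL28, RPS19 and RPS9 of chromosome 19 sit at neighbour medians of 0.29, 0.25 and 0.23.

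By the tract at the start, the 28 members with it had a median difference of 0.09, from -0.30 to 0.88, and 19 were above 0. The 12 without it had a median of -0.0013, from -0.25 to 0.25, and 6 were above 0. The highest of these, RPL19 at 0.25 and RPS7 at 0.23, had pyrimidine runs of 12 and 11 bases across the start. They were counted as without the tract because no annotated start was a C followed by 4 pyrimidines. The split thus depends on the annotated start base. Of 18 other genes listed for such a tract 9 were measured, with a median of 0.12. Above 0 were 5 of the 9 (55.6%), against 36.7% of all genes past the filter. The median was 0.02 when the feature with the highest mean level stood for a gene, as EIF4B, named after its value was seen, then had 0.02 in place of 0.18. The elongation factor genes EEF1A1 and EEF1D were both at 0.22, the histone chaperone gene NAP1L1 at -0.31 and the intermediate filament gene VIM at -0.64. NAP1L1 passed the filter in the EGFP vector array alone (4.05, against 3.73 in the EGFP-ARHGAP4 array). VIM lies among chromosome 10 genes whose median was -0.96.

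Of 10 paralogs and fusion genes outside the rule 9 were measured, and RPS27L was the highest. This paralog of RPS27 is a known p53 target. It had 4.18 in the EGFP-ARHGAP4 array and 3.38 in the EGFP vector array, a difference of 0.80, and lay below the filter in the EGFP vector array. RPS27 itself differed by 0.24. RPL22L1, the paralog of RPL22, had 4.99 in EGFP-ARHGAP4 cells and 5.33 in vector cells (-0.34), while RPL22 differed by -0.07. RPL26L1 at -0.15 and RPL26 at -0.22 were on the same side. FAU, which encodes RPS30 as a fusion with a ubiquitin-like protein, was at 0.12, RPL36AL at -0.25 and RPL7L1 at -0.14. RPL3L at 0.40, RPL10L at 0.63 and RPL39L at 0.01 were below the filter in both arrays.

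The genes that assemble ribosomes had a lower median difference than the ribosomal protein genes. Of 100 listed assembly factors 74 were measured, with a median of -0.26 and 12 above 0 (16.2%), against 36.7% of all genes past the filter, which all 74 passed. After loess the medians were -0.13 for assembly factors and 0.18 for ribosomal proteins. Of the 74, 5 were lower and 1 was higher by at least 0.5, which is no larger a share than the 9.81% lower and 5.15% higher among all genes past the filter. By at least 0.25, 38 of the 74 were lower and 2 higher, where 29.9% of all genes past the filter were lower and 14.2% higher. GTPBP4, a GTPase of large subunit assembly, had 6.46 in EGFP-ARHGAP4 cells and 7.80 in vector cells (-1.34), with chromosome 10 neighbours at -0.67. GAR1, of the pseudouridylation complex, was at 5.32 in EGFP-ARHGAP4 cells and 6.05 in vector cells (-0.73), the 5S RNA loading factor gene RRS1 at 7.44 in EGFP-ARHGAP4 cells and 7.99 in vector cells (-0.55) and RPF1 at 7.08 in EGFP-ARHGAP4 cells and 7.63 in vector cells (-0.54). Without the 6 genes of chromosome 10 the median was again -0.26. No test of the difference between these lists was possible with 1 array in each group.

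**Figure D4:**
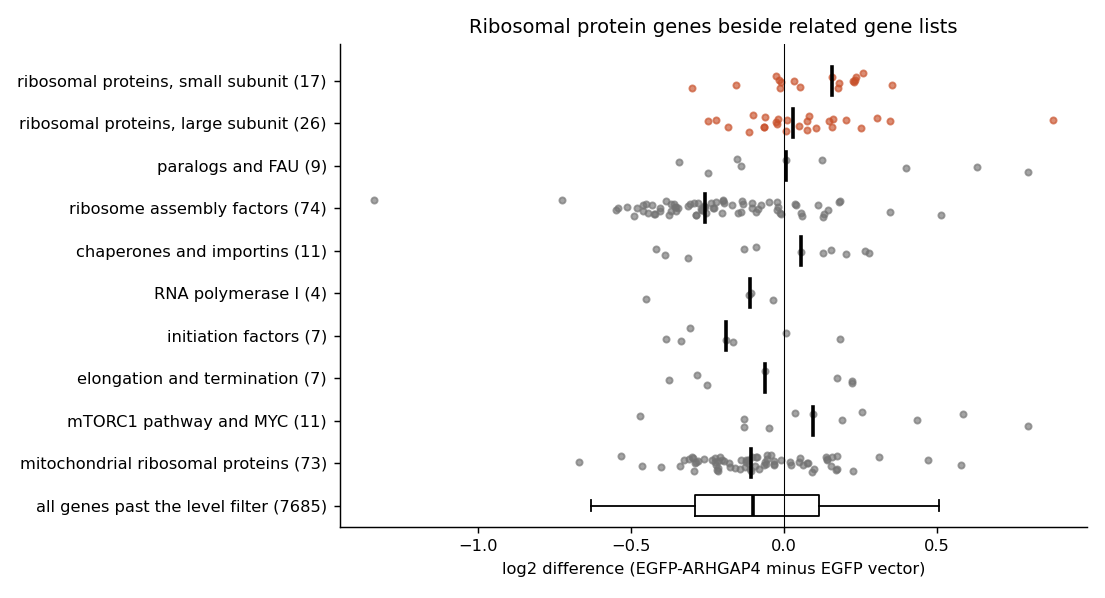
Difference in log2 value (EGFP-ARHGAP4 minus EGFP vector) of each measured gene in the ribosomal protein groups (coloured) and related lists (grey), with the number of genes in brackets and the median as a black bar. The box spans the quartiles and the whiskers the 5th and 95th percentiles of all genes past the level filter; small subunit genes centre on 0.16 and assembly factors on -0.26.

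Of 77 genes of the mitochondrial ribosome, the organelle's separate machine, 73 were measured. Their median was -0.11, or 0.01 after loess, with 21 above 0 (28.8%, against 36.7% of all genes past the filter). Of the 73, 56 (76.7%) differed by under 0.25, against 55.9% of all genes past the filter. The largest differences were MRPL48 at -0.67, MRPS16 at 0.58, MRPS5 at -0.53 and MRPL42 at -0.46; MRPS16 lies on chromosome 10, with neighbours at 0.37.

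Other genes of translation were measured only in part. The 7 measured initiation factors had a median of -0.19, with 2 above 0 (28.6%, against 36.7% of all genes past the filter) and none past 0.5. EIF5B, of subunit joining, was at -0.38, the cap-binding protein gene EIF4E at -0.34, EIF4E2 at -0.31 and EIF4H at -0.19. The 7 elongation and termination genes had a median of -0.06, with 3 above 0 (42.9%, against 36.7% of all genes past the filter). GSPT1 was at -0.37, HBS1L at -0.28 and EIF5A at -0.25, while EEF1A1 and EEF1D were each at 0.22. The median of this list turned to 0.19 after quantile normalization and 0.03 after loess. All 4 measured genes of RNA polymerase I and rRNA gene transcription were below 0, as were 4719 of the 7685 genes past the filter. POLR1F was at -0.45, RRN3 at -0.12, POLR1H at -0.11 and GTF3A at -0.03. However, GTF3A was at 0.08 after quantile normalization and 0.10 after loess, and RRN3 at 0.02 after loess. The 11 chaperones and importins of ribosomal proteins had a median of 0.06, or -0.02 without chromosome 10, with IPO7 at -0.42, HEATR3 at -0.39 and PDCD2L at 0.28.

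In the mTORC1 pathway and MYC list 11 of 16 genes were measured, with a median of 0.09, or 0.04 without chromosome 10, and 2 higher by at least 0.5, where 4.25% of all genes were. PDCD4, an inhibitor of the initiation helicase eIF4A, had 8.97 in the EGFP-ARHGAP4 array and 8.18 in the EGFP vector array, a difference of 0.80. AKT1S1, an inhibitory subunit of mTORC1, was at 6.68 in EGFP-ARHGAP4 cells and 6.09 in vector cells (0.58), and EIF4EBP2, a repressor of cap binding, at 9.22 in EGFP-ARHGAP4 cells and 8.79 in vector cells (0.43). RHEB, the GTPase that activates mTORC1, was at 4.20 in EGFP-ARHGAP4 cells and 4.67 in vector cells (-0.47). The rest of the list past the filter differed less and went both ways. TSC2 was at 0.19, MAX at 0.09, TSC1 at 0.04, MTOR at -0.05, and EIF4EBP1 and MYC at -0.13. PDCD4 and EIF4EBP2 lie on chromosome 10, with neighbours at 0.21 and 0.29, and AKT1S1 on chromosome 19, with neighbours at 0.17.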

How the data were processed

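RNA of 1 culture per group was amplified, labelled with biotin and hybridised to whole-transcript arrays, per the labels' protocols. The authors deposited 1 normalized log2 expression value per feature; how they normalized it is not stated in the labels, and the log base was read from the range of the values. Platform annotation named 15835 of 44629 features, all matched to the RefSeq gene table (GRCh38.p14) by Entrez identifier. Values of features with the same symbol were averaged, giving 14812 genes. The level filter (4.02) is the median of all gene-level values. Chromosomes and gene order came from the same gene table; the build behind the array is not given.

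With 1 array in each group there is no test. Members and lists were chosen with earlier results of these data known. All members were named, all measured paralogs, and from each list the up to 4 genes past the filter that differed most either way. The rest of the mTORC1 pathway and MYC list past the filter was added after the values were seen. Small nucleolar RNA genes inside members and proteasome genes were not analysed here. Alternatives were quantile normalization, median centring, a loess curve (span 0.3), the feature with the highest mean level, other thresholds, the filter, and leaving out chromosome 10. The calculations were tested on simulated data. Tables were handled in Python 3.11.15 with numpy 2.4.6 and pandas 2.3.3, loess curves came from statsmodels 0.14.6 and figures from matplotlib 3.10.9. The number of arrays limits the precision.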

Additional observations from a re-analysis of the deposited data

How the results depend on the processing

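The median of the ribosomal protein genes stayed above 0 under every setting tried, from 0.05 without RPL28, without chromosome 10 or with the paralogs added, to 0.16 after quantile normalization and 0.18 after loess. The number of members above 0 was 26 as deposited, 35 after quantile normalization, 33 after centring and 37 after loess; 11 members within 0.12 of 0 (RPL8, RPL11, RPL14, RPL17, RPL18, RPL29, RPL30, RPS3, RPS21, RPS28 and RPS29) changed sign under at least 1 of these scalings. Genes past the filter also moved up in their median, by 0.08 after quantile normalization and 0.10 after loess, and centring raised every gene by 0.03. The share of all genes above 0 was not computed after the scalings. The rise in the number of members above 0 is thus not to be read as particular to them. At a threshold of 0.25, 6 members were higher and 1 lower, against 1 and 0 at 0.5; at a threshold of 1, 0 were higher. Relative to neighbouring genes, an alternative chosen after seeing the data like the one without RPL28, 2 were higher by 0.5. The share of all genes that were so was not computed. The median of the mitochondrial ribosomal genes turned to 0.01 after loess, and that of the paralogs to -0.01 after loess and -0.15 among those past the filter. For these changes the cause was not tested. ARHGAP4 differed by 2.19 to 2.28. No paired analysis was possible because each group has 1 array.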
